A study of Homo sapiens with 18 samples.

Results

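The 9 genes described here carry the plasminogen activator system and the tissue factor branch of coagulation: PLAU, PLAT, PLAUR, SERPINE2, F3, TFPI, TFPI2, THBD and F2RL1. They were picked by name from a table of 57500 genes, with their changes under TRI-611 and their levels between the lines in view, so their values in those comparisons are a description and carry no test. TRI-611 is a molecular glue degrader of the receptor tyrosine kinase ALK, per the series title. Poly-A RNA of 3 human non-small cell lung cancer lines was sequenced in 18 libraries. Groups were SNU2535 with 3 µM TRI-611 for 3 h and SNU2535 with DMSO, the solvent control, NCI-H3122 with TRI-611 and with DMSO at the same dose and time, and NCI-H2228 likewise, with 3 libraries each. All groups are labelled with a wild-type genotype, and each line stands for 1 tumour. The labels give a batch numbered 1 to 3, equal to the replicate number, but not whether replicates were grown apart, so a p-value reflects the spread of these samples alone, which may be technical.

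Plasmin is made from plasminogen by the serine proteases urokinase (PLAU) and tissue-type plasminogen activator (PLAT). Urokinase works at the cell surface on its receptor PLAUR, and serpins such as SERPINE2 block the activators. Coagulation starts when tissue factor (F3) binds factor VIIa, which TFPI inhibits, and thrombomodulin (THBD) redirects thrombin to activate protein C. Many carcinoma cells make these proteins themselves, and F2RL1 is the receptor through which trypsin-like proteases and the tissue factor complex signal into the cell.

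All 9 genes passed the filter on low values in every comparison. Values are TPM, a scaled transcript abundance that corrects for transcript length but holds no read totals, so the depth behind each value is unknown. A library held 23766 to 25921 genes with a TPM above 0, and the r across genes was 0.991 to 0.993 between replicates. ALK itself averaged 21.3 TPM in SNU2535, 15.1 TPM in NCI-H3122 and 10.9 TPM in NCI-H2228 with TRI-611, against 24.8, 16.2 and 11.0 TPM with DMSO, and was not called in any line by limma; an RNA level does not measure the degraded protein. DUSP6, a phosphatase gene that follows ERK activity, changed by -4.24 in SNU2535, -4.36 in NCI-H3122 and -1.86 in NCI-H2228 on the log2(TPM + 1) scale (limma, adjusted p = 2.56e-07, 4.64e-07 and 1.10e-05). In the same order DUSP6 stood at 1.79%, 4.51% and 22.8% of its DMSO mean. It averaged 0.488 TPM in SNU2535 with TRI-611, and this scale understates the change of low genes. All 7 epithelial markers averaged at least 1 TPM in SNU2535 and NCI-H2228 and 6 in NCI-H3122, where NAPSA did not. Their summed level ran from 7061 to 7426 TPM with TRI-611 against 7557 to 7887 TPM with DMSO in SNU2535, from 6138 to 6698 with TRI-611 against 7457 to 7747 with DMSO in NCI-H3122, and from 2403 to 2486 with TRI-611 against 2645 to 2778 with DMSO in NCI-H2228. Single markers differed: KRT8, KRT18 and KRT19 averaged lower with TRI-611 in each line, NKX2-1 and CDH1 higher in each. NKX2-1 averaged 435 TPM with TRI-611 and 351 TPM with DMSO in SNU2535. In the same order it averaged 259 and 125 TPM in NCI-H3122 and 140 and 83.1 TPM in NCI-H2228. EPCAM and NAPSA averaged higher with TRI-611 in SNU2535 and NCI-H2228, and EPCAM lower in NCI-H3122. The 5 endothelial markers summed to 10.7 to 11.9 TPM with TRI-611 against 11.8 to 12.4 TPM with DMSO in SNU2535, 3.28 to 4.18 with TRI-611 against 2.30 to 2.83 with DMSO in NCI-H3122 and 2.12 to 2.54 with TRI-611 against 2.67 to 2.73 with DMSO in NCI-H2228, with TIE1 and TEK below 1 TPM on average in every group. The 4 fibroblast markers summed to 148 to 172 TPM with TRI-611 against 137 to 146 TPM with DMSO in SNU2535, 183 to 193 with TRI-611 against 217 to 223 with DMSO in NCI-H3122 and 361 to 373 with TRI-611 against 370.2 to 393 with DMSO in NCI-H2228, with DCN and PDGFRB below 1 TPM on average in every group. The leukocyte markers PTPRC and CD3E stayed below 1 TPM on average in every group, as did ALB of hepatocytes. The other leukocyte marker reported, CD14, averaged 6.89 TPM with TRI-611 and 7.16 TPM with DMSO in SNU2535. It averaged 1.68 TPM with TRI-611 and 2.96 TPM with DMSO in NCI-H3122. In NCI-H2228 CD14 averaged 8.43 TPM with TRI-611 and 8.00 TPM with DMSO. The part of these marker levels in the results was not tested, and in bulk RNA fewer cells of a type and less RNA per cell cannot be told apart.

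The 250 bases before the start of F3, PLAUR and TFPI2 are shown because these are the members whose windows held an AP-1 motif, spelled TGANTCA, and that of PLAU because it changed alongside F3 without one. Sequences come from RefSeq on GRCh38.p14 and read 5′ to 3′ on the gene's strand. Capitals mark the AP-1 motif in F3 (chr1:94541760-94542009, minus strand), PLAUR (chr19:43670170-43670419, minus strand) and TFPI2 (chr7:93890754-93891003, minus strand), and the GC box, spelled GGGCGG, at the downstream listed start of PLAU (chr10:73910882-73911131, plus strand).
F3: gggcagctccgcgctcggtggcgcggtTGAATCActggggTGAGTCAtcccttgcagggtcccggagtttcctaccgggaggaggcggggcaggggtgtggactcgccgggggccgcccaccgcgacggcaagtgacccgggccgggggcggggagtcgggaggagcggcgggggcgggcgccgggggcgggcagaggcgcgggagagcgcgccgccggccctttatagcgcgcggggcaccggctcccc
PLAUR: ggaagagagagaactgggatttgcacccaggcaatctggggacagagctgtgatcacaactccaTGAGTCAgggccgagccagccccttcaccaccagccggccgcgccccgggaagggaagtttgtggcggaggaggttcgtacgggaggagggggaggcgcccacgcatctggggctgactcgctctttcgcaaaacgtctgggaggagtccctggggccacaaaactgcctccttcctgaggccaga
TFPI2: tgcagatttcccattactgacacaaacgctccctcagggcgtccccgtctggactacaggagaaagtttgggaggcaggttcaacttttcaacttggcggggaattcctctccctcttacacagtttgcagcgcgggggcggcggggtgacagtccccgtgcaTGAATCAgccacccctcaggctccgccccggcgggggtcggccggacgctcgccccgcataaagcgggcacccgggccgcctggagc
PLAU: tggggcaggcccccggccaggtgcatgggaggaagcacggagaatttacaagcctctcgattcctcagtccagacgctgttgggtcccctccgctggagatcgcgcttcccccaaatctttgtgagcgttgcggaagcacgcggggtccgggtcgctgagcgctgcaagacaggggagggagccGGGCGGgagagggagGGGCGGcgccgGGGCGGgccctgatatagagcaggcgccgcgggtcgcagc
The 2 matches in F3 began 223 and 210 bases before its start, that in PLAUR 186 and that in TFPI2 87 bases before. The 3 GC boxes of PLAU began 66, 51 and 40 bases before its start, and F3 also held 4 GC boxes. Every motif was sought on both strands. No AP-1 match overlapped a GC box in these windows. In windows of 300 bases around the start (250 before and 50 after), 7.71% of 35116 RefSeq promoters held the AP-1 motif and 45.0% the GC box. Of the 7 members with a window, 3 and 5 held them. THBD and PLAT had no window and were not searched. The 7 members had 9 windows, so a count of members and a share of windows are unlike measures. The ETS motif CCGGAAG, in 10.3% of all windows, was in none of the members' windows, and the TEAD motif GGAATG, in 14.0%, was in that of F2RL1. A match describes the letters only and says nothing of a factor's binding.

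With TRI-611, tissue factor, urokinase, its receptor, tissue-type activator and thrombomodulin were lower in all 3 lines. Relative to DMSO, F3 and PLAU were lowest in NCI-H3122 and SNU2535, at 28.1% to 39.9% of their DMSO means, and THBD in SNU2535 stood at 12.6%. TFPI was higher in SNU2535 and NCI-H3122, and F2RL1 and SERPINE2 differed from line to line. By limma at an adjusted p under 0.05, 8 of the 9 members were called in SNU2535, 6 lower and 2 higher. There 28.7% of the 16252 genes tested were called, 18.1% lower and 10.7% higher. In NCI-H3122 8 were called, 7 lower and 1 higher, beside 34.1% of 15311 genes, 13.4% lower and 20.6% higher. In NCI-H2228 5 were called, all lower, beside 11.2% of 16806 genes, 6.4% lower and 4.8% higher. Other scalings moved the split of all calls: in SNU2535 1731 genes were higher and 2941 lower as deposited but 2500 and 2415 with quantile normalization, and in NCI-H3122 3160 and 2054 but 2694 and 2976 with median-ratio scaling. The median change of the 9 members was -0.28, -0.90 and -0.44 in SNU2535, NCI-H3122 and NCI-H2228, against -0.02, 0.05 and 0.01 over all genes tested. Since the members were chosen on these contrasts, nothing is read from these shares.

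**Figure D1:**
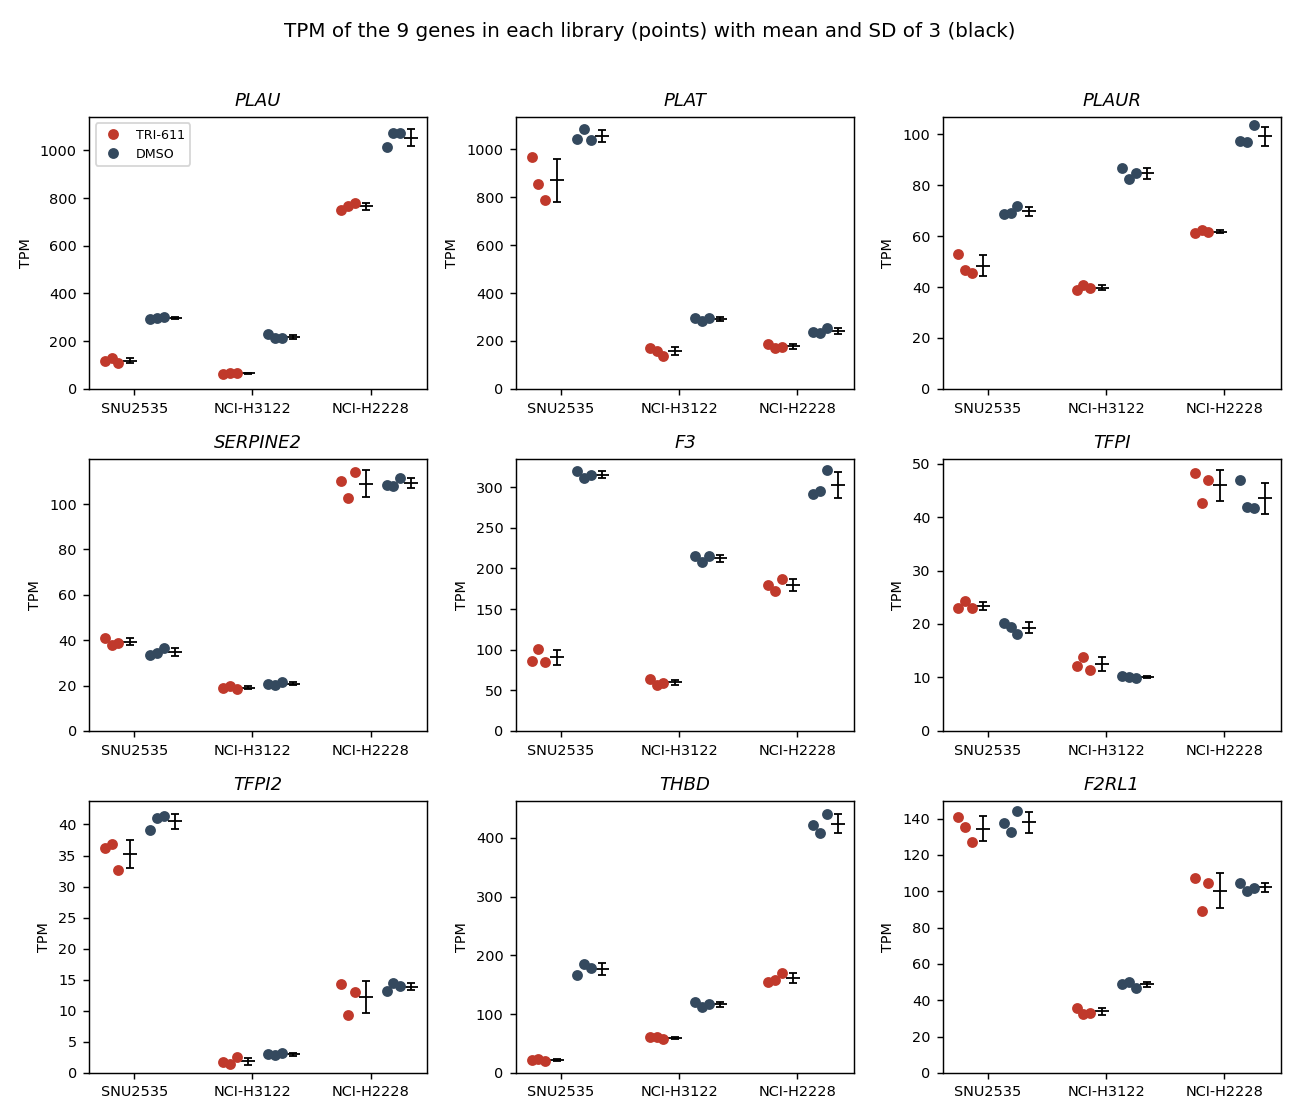
TPM of each of the 9 genes, 1 panel a gene with its own axis from 0, in every library (points) with the mean and SD of 3 (black), TRI-611 left of DMSO in each line. PLAU, PLAT, PLAUR, F3 and THBD lie lower with TRI-611 than with DMSO in each line with no overlap of the groups.

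PLAU encodes urokinase, the activator bound to the cell surface (chr10:73909177-73917497, plus strand, GRCh38). It measured 115, 129.6 and 110.4 TPM in the 3 SNU2535 libraries with TRI-611, against 291, 298 and 301 TPM with DMSO. In NCI-H3122 it measured 63.8, 67.4 and 66.9 TPM with TRI-611, against 229, 213 and 215 TPM with DMSO. All treated libraries of both lines lay below all of their controls, and the log2 change was -1.32 (SE 0.0575) in SNU2535 and -1.71 (SE 0.0415) in NCI-H3122. NCI-H2228, the line with most PLAU RNA, measured 751, 766 and 778 TPM with TRI-611, against 1013, 1074 and 1073 TPM with DMSO. There the groups were also apart, at a log2 change of -0.46 (SE 0.0329), so 72.7% of the DMSO mean remained. Within batches 1, 2 and 3 the log2 change of PLAU was -1.82, -1.65 and -1.67 in NCI-H3122, -1.33, -1.19 and -1.44 in SNU2535 and -0.43, -0.49 and -0.46 in NCI-H2228. PLAU overlaps C10orf55 on the other strand, which averaged at most 6.39 TPM in a group, and reads of overlapping genes cannot be told apart because the strand setting is not given in the sources used here.

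PLAT encodes tissue-type plasminogen activator, the fibrin-dependent protease used to dissolve clots (chr8:42175233-42207724, minus strand). It measured 966, 856 and 790.3 TPM in SNU2535 with TRI-611, against 1042, 1087 and 1041 TPM with DMSO. The groups did not overlap, but treated replicate 1 lay close to the controls, and the log2 change was -0.28 (SE 0.0688). That call was lost without DMSO replicate 2 (-0.26), DMSO replicate 3 (-0.29) or TRI-611 replicate 2 (-0.27) and with no filter on low values. NCI-H3122 measured 172, 159 and 139 TPM with TRI-611, against 297, 283 and 296 TPM with DMSO, a log2 change of -0.90 (SE 0.0731). NCI-H2228 measured 189, 169 and 175 TPM with TRI-611, against 239, 232 and 253 TPM with DMSO, a log2 change of -0.44 (SE 0.0515). PLAT was thus lower in every treated library than in any control of its line. Within batches 1, 2 and 3 the log2 change was -0.78, -0.83 and -1.09 in NCI-H3122, -0.11, -0.34 and -0.40 in SNU2535 and -0.33, -0.46 and -0.53 in NCI-H2228.

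PLAUR encodes the glycolipid-anchored receptor that holds urokinase at the cell surface (chr19:43646095-43670547, minus strand). It measured 53.1, 46.6 and 45.7 TPM in SNU2535 with TRI-611, against 68.6, 68.9 and 71.9 TPM with DMSO. NCI-H3122 measured 39.0, 41.0 and 39.4 TPM with TRI-611, against 86.8, 82.7 and 84.7 TPM with DMSO. NCI-H2228 measured 61.2, 62.3 and 61.8 TPM with TRI-611, against 97.4, 96.9 and 104 TPM with DMSO. Treated and control libraries were apart in all 3 lines, at log2 changes of -0.52 (SE 0.0600), -1.07 (SE 0.0394) and -0.68 (SE 0.0399) in SNU2535, NCI-H3122 and NCI-H2228. Within batches the log2 change ran from -0.64 to -0.36 in SNU2535, -1.13 to -0.99 in NCI-H3122 and -0.73 to -0.63 in NCI-H2228.

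SERPINE2, or protease nexin-1, is a serpin that inhibits thrombin and urokinase (chr2:223975112-224039319, minus strand). It measured 41.0, 38.0 and 38.7 TPM in SNU2535 with TRI-611, against 33.4, 34.3 and 36.6 TPM with DMSO, a log2 change of 0.17 (SE 0.0508). The call in SNU2535 was lost with batch as a block, with no filter and when any 1 library except DMSO replicate 3 was left out, with log2 changes from 0.14 to 0.19 across the libraries whose removal ended it. In NCI-H3122 SERPINE2 measured 18.7, 19.7 and 18.6 TPM with TRI-611, against 20.5, 20.4 and 21.5 TPM with DMSO. The groups did not overlap, yet the log2 difference of -0.12 (SE 0.0502) was not called. NCI-H2228 measured 110.3, 103 and 114 TPM with TRI-611, against 108, 108 and 112 TPM with DMSO, and the groups overlapped. The NCI-H3122 difference was called under median-ratio scaling (-0.18), under quantile normalization (-0.17) and in 1 fit of all libraries (-0.12).

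F3 encodes tissue factor, the membrane protein that starts coagulation (chr1:94529225-94541800, minus strand). It measured 85.8, 101 and 84.8 TPM in SNU2535 with TRI-611, against 320.4, 311 and 315 TPM with DMSO. NCI-H3122 measured 63.4, 56.9 and 59.1 TPM with TRI-611, against 215, 207 and 215 TPM with DMSO. Both lines kept a like share of their control level, 28.6% in SNU2535 and 28.1% in NCI-H3122, with log2 changes of -1.80 (SE 0.0634) and -1.81 (SE 0.0465). NCI-H2228 measured 179.8, 172 and 187 TPM with TRI-611, against 292, 295 and 321 TPM with DMSO, a log2 change of -0.75 (SE 0.0478). No treated library reached a control of its line, and within batches 1, 2 and 3 the log2 change was -1.75, -1.85 and -1.85 in NCI-H3122, -1.89, -1.62 and -1.88 in SNU2535 and -0.69, -0.77 and -0.78 in NCI-H2228.

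TFPI encodes the Kunitz-type inhibitor of factor Xa and of the complex of tissue factor with factor VIIa (chr2:187464230-187565760, minus strand). It measured 23.0, 24.3 and 23.0 TPM in SNU2535 with TRI-611, against 20.2, 19.5 and 18.2 TPM with DMSO, a log2 change of 0.27 (SE 0.0552). NCI-H3122 measured 12.2, 13.9 and 11.4 TPM with TRI-611, against 10.2, 10.1 and 9.89 TPM with DMSO, a log2 change of 0.28 (SE 0.0769). TFPI was the member with higher levels in all treated libraries than in any control in both of these lines. The call in NCI-H3122 was lost when any 1 DMSO replicate was left out (replicate 1, 0.29, replicate 2, 0.28, replicate 3, 0.27), without TRI-611 replicate 2 (0.21), with no filter and with quantile normalization. In NCI-H2228 TFPI measured 48.3, 42.6 and 46.9 TPM with TRI-611, against 46.9, 41.9 and 41.6 TPM with DMSO, and the groups overlapped. TFPI overlaps the antisense gene AC007319.1, which reached at most 1.10 TPM in any library.

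TFPI2 encodes a related Kunitz-type inhibitor of plasmin and other serine proteases (chr7:93885396-93890991, minus strand). It measured 36.2, 36.8 and 32.7 TPM in SNU2535 with TRI-611, against 39.1, 41.0 and 41.4 TPM with DMSO, a log2 change of -0.20 (SE 0.0549). NCI-H3122 held little TFPI2, 1.76, 1.38 and 2.504 TPM with TRI-611, against 2.96, 2.80 and 3.15 TPM with DMSO, a log2 change of -0.48 (SE 0.157) on a scale that understates the change of low genes. Neither call held in every setting. In SNU2535 it was lost with batch as a block, with quantile normalization, with no filter, in 1 fit of all libraries and without TRI-611 replicate 3 (-0.15), DMSO replicate 2 (-0.19) or DMSO replicate 3 (-0.18). The NCI-H3122 call was lost with batch as a block, with a pseudocount of 0.1, with no filter and when any 1 library except TRI-611 replicate 3 was left out, with log2 changes from -0.51 to -0.35 across those libraries. NCI-H2228 measured 14.3, 9.37 and 13.0 TPM with TRI-611, against 13.2, 14.4 and 14.0 TPM with DMSO, and the groups overlapped. TFPI2 overlaps GNGT1 and AC002076.1 on the other strand. GNGT1 averaged 5.64 TPM with TRI-611 and 5.60 TPM with DMSO in NCI-H2228 and at most 0.210 TPM in a group of the other lines.

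THBD encodes thrombomodulin, the thrombin-binding receptor best known from endothelium (chr20:23045633-23049741, minus strand). It measured 22.6, 23.9 and 20.3 TPM in SNU2535 with TRI-611, against 166, 185 and 179 TPM with DMSO. The treated level was 7.93-fold lower, a log2 change of -2.93 (SE 0.0661). NCI-H3122 measured 60.8, 60.9 and 57.7 TPM with TRI-611, against 121, 112 and 117 TPM with DMSO, a log2 change of -0.95 (SE 0.0439). NCI-H2228, the line with the highest THBD, measured 154, 158 and 171 TPM with TRI-611, against 423, 408 and 441 TPM with DMSO, a log2 change of -1.39 (SE 0.0466). The groups were apart in every line. Within batches 1, 2 and 3 the log2 change was -0.98, -0.86 and -1.01 in NCI-H3122, -2.82, -2.90 and -3.07 in SNU2535 and -1.45, -1.36 and -1.37 in NCI-H2228.

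F2RL1 encodes protease-activated receptor 2, a G protein-coupled receptor opened by cleavage (chr5:76818933-76835315, plus strand). It measured 35.9, 32.6 and 32.9 TPM in NCI-H3122 with TRI-611, against 49.2, 49.9 and 47.0 TPM with DMSO, a log2 change of -0.51 (SE 0.0506). The groups overlapped in the other lines, where it was not called. SNU2535 measured 141, 135 and 127 TPM with TRI-611, against 137, 133 and 144 TPM with DMSO. NCI-H2228 measured 107, 89.3 and 104 TPM with TRI-611, against 105, 99.9 and 102 TPM with DMSO. Over all 9 members, treated and control libraries did not overlap for 8 in SNU2535, 9 in NCI-H3122 and 5 in NCI-H2228, beside 43.9%, 48.1% and 31.4% of all genes tested.

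**Figure D2:**
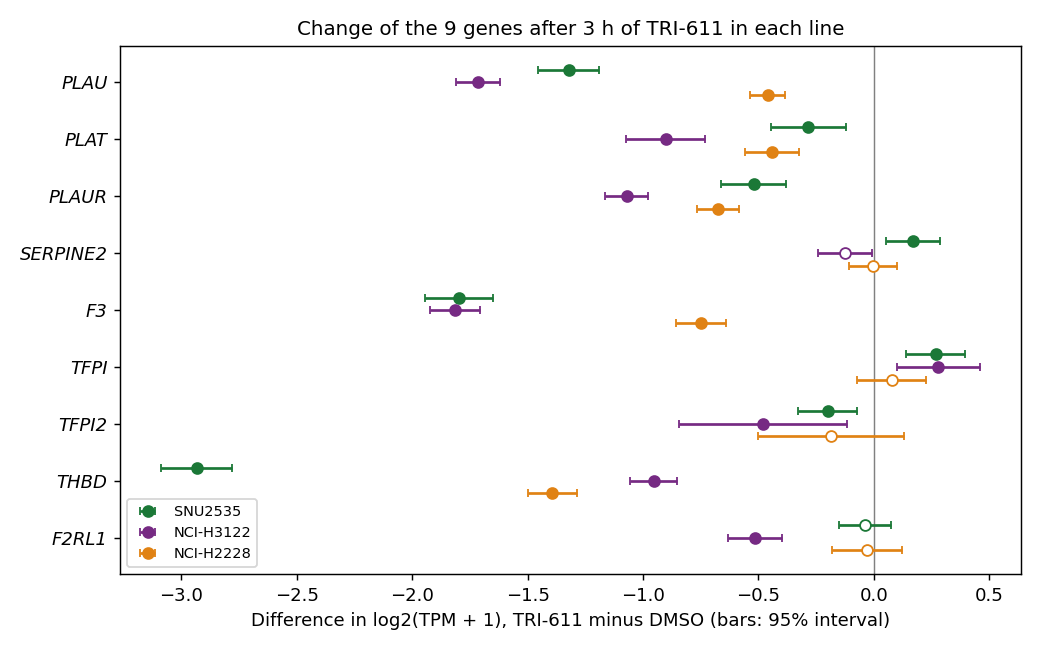
Difference in log2(TPM + 1), TRI-611 minus DMSO, for each of the 9 genes in each line, with bars for limma's 95% interval and open points for members not called at an adjusted p under 0.05. THBD in SNU2535 lies lowest at -2.93, while the TFPI points lie above 0 in each line, with an interval across 0 in NCI-H2228 (-0.071 to 0.225).

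The size of the change was compared between lines by the interaction of treatment and line in the 12 libraries of each pair. For the members, the values and calls that follow are a description and no test. Between SNU2535 and NCI-H3122, 6 members were called, beside 16.3% of 18152 genes. The THBD difference was -1.98 on the log2 scale (SE 0.0839), with the larger decrease in SNU2535, whereas the decreases of PLAT, PLAUR and PLAU were smaller in SNU2535 by 0.62, 0.55 and 0.39. The difference was 0.017 for F3, with a 95% interval from -0.17 to 0.20. Between SNU2535 and NCI-H2228, PLAU, F3 and THBD were called, beside 8.11% of 18844 genes, with differences of -0.86, -1.05 and -1.54. The PLAT difference there was 0.16, with an interval from -0.048 to 0.36, and was not called. Between NCI-H3122 and NCI-H2228, 6 members were called, beside 11.1% of 18627 genes. PLAU, F3, F2RL1, PLAT and PLAUR had differences of -1.25, -1.07, -0.48, -0.46 and -0.40, with the larger decrease in NCI-H3122. THBD had a difference of 0.44, with the larger decrease in NCI-H2228. NCI-H3122 thus had the largest decrease of the 3 lines in PLAU, PLAT, PLAUR and F2RL1 RNA, and SNU2535 in THBD RNA. These differences rest on the contrasts that chose the members and are a description.

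Levels in DMSO also set the lines apart, though such differences were common: of 18233 genes, 76.1% were called for SNU2535 against NCI-H3122, 75.0% for SNU2535 against NCI-H2228 and 79.3% for NCI-H3122 against NCI-H2228. The 3 comparisons share their DMSO libraries. In the same order 9, 8 and 9 members were called, and libraries did not overlap for 9, 8 and 9 of them, beside 78.3%, 76.4% and 80.7% of all genes. The median of all genes differed by 0.16, -0.11 and -0.25 on the log2 scale as deposited, and other scalings moved it by up to 0.345, so directions are read relative to that median. PLAT was the most abundant member in SNU2535, at 1056 ± 26.5 TPM, and was 1.69 higher there than in NCI-H3122 and 2.24 higher than in NCI-H2228 after taking off the median gene. PLAU led in NCI-H2228, at 1053 ± 34.8 TPM, and was lower in the other lines, with differences of -1.71 for SNU2535 and -2.01 for NCI-H3122 on the same scale. TFPI2 stood at 40.5 ± 1.22 TPM in SNU2535, 2.97 ± 0.176 TPM in NCI-H3122 and 13.9 ± 0.587 TPM in NCI-H2228, an inhibitor with its least RNA in NCI-H3122. SERPINE2 stood at 34.8 ± 1.65, 20.8 ± 0.651 and 109 ± 2.08 TPM and TFPI at 19.3 ± 1.03, 10.1 ± 0.162 and 43.5 ± 2.94 TPM in SNU2535, NCI-H3122 and NCI-H2228, so both inhibitors were highest in NCI-H2228. THBD was lower in SNU2535 and NCI-H3122 than in NCI-H2228, with differences of -1.15 and -1.60 relative to the median gene. F2RL1 was highest in SNU2535, at 138 ± 5.71 TPM, against 48.7 ± 1.53 TPM in NCI-H3122 and 102 ± 2.40 TPM in NCI-H2228. F3 was not called between SNU2535 and NCI-H2228 (0.062, SE 0.0383, overlapping libraries) unless the values were rescaled by median ratios (0.16) or NCI-H2228 DMSO replicate 3 was left out (0.11), when it was called. PLAUR was lower in NCI-H3122 than in NCI-H2228 as deposited (-0.23), but the direction turned under median-ratio scaling (0.0689) and quantile normalization (0.00937) and the call was lost. Errors are SD over 3 libraries.

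**Figure D3:**
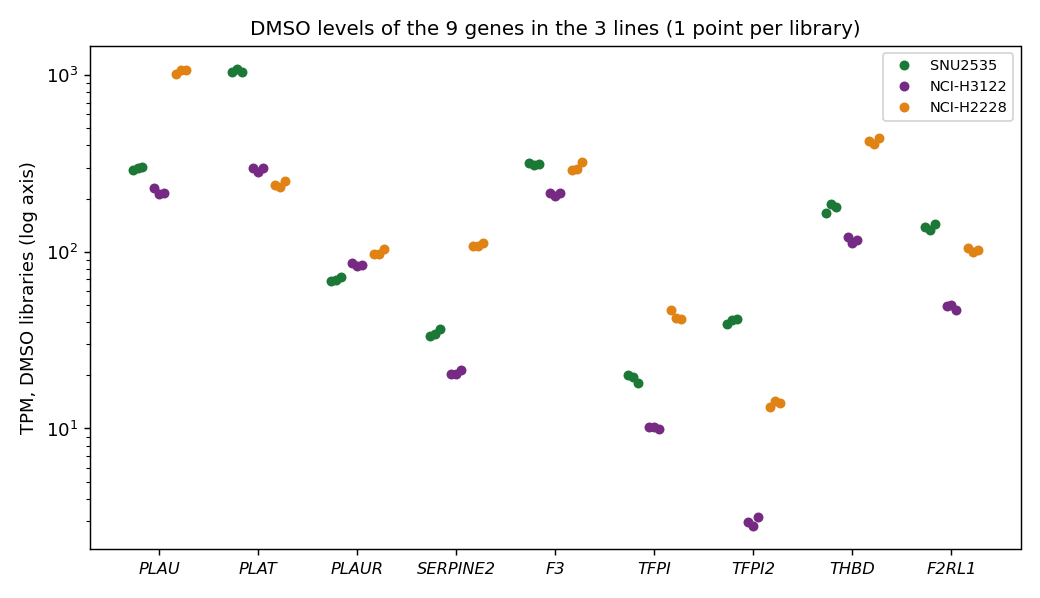
DMSO levels of the 9 genes (TPM, log axis) in the 3 lines, with 1 point per library. PLAT leads in SNU2535 and NCI-H3122 and PLAU in NCI-H2228, and TFPI2 lies lowest in NCI-H3122 and NCI-H2228.

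Ordered by DMSO level, SNU2535 ran PLAT, F3, PLAU, THBD, F2RL1, PLAUR, TFPI2, SERPINE2 and TFPI, and no neighbours overlapped. NCI-H3122 ran PLAT, PLAU, F3, THBD, PLAUR, F2RL1, SERPINE2, TFPI and TFPI2, where PLAU and F3 overlapped. NCI-H2228 ran PLAU, THBD, F3, PLAT, SERPINE2, F2RL1, PLAUR, TFPI and TFPI2, where F2RL1 and PLAUR overlapped. With TRI-611, THBD in SNU2535 moved to the low end beside TFPI, whose libraries it overlapped, and PLAT stayed first in SNU2535 and NCI-H3122 and PLAU in NCI-H2228. The 9 genes together held 1383 ± 106 TPM in SNU2535 with TRI-611 and 2148 ± 30.0 TPM with DMSO, 449 ± 20.2 TPM with TRI-611 and 1007 ± 25.0 TPM with DMSO in NCI-H3122, and 1613 ± 39.7 TPM with TRI-611 and 2389 ± 64.7 TPM with DMSO in NCI-H2228 (SD, n = 3 each).

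Ratios between members were taken within each library. The ratio of F3 to TFPI RNA, both in TPM, was 3.86 ± 0.248 with TRI-611 and 16.4 ± 0.819 with DMSO in SNU2535. In NCI-H3122 it was 4.83 ± 0.636 with TRI-611 and 21.1 ± 0.642 with DMSO, and in NCI-H2228 3.92 ± 0.172 with TRI-611 and 6.99 ± 0.748 with DMSO (SD, n = 3 each). Treated libraries lay below their controls in all 3 lines. The ratio of PLAT to PLAU RNA was 7.39 ± 0.923 with TRI-611 and 3.56 ± 0.0987 with DMSO in SNU2535. It was 2.38 ± 0.308 with TRI-611 and 1.34 ± 0.0414 with DMSO in NCI-H3122, against 0.232 ± 0.0172 with TRI-611 and 0.229 ± 0.0115 with DMSO in NCI-H2228. PLAT thus outweighed PLAU more with TRI-611 in SNU2535 and NCI-H3122, while the libraries of NCI-H2228 overlapped.

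Genes of the same pathways outside the members came from textbook lists, drawn up with earlier results of these data known. Of 12 further plasminogen genes, PLG, SERPINB2, CPB2, VTN and KLKB1 reached 1 TPM in no library, plasminogen itself included. Of 6 tested in SNU2535, 2 rose and 0 fell with TRI-611 by limma (0 fell also at an unadjusted p under 0.05; median log2 change 0.12, against -0.02 over all genes). ANXA2 and S100A10, which together form a plasminogen-binding complex, averaged 812 and 1932 TPM with TRI-611, against 745 and 1783 TPM with DMSO, changes of 0.12 and 0.12 (limma, adjusted p = 0.0118 and 0.0424). The S100A10 call was lost with batch as a block (adjusted p = 0.0888) and in 8 of 14 settings in all, among them when any 1 library except DMSO replicate 3 was left out (0.088 to 0.12), and that of ANXA2 with quantile normalization (0.056, adjusted p = 0.208) and without TRI-611 replicate 2 (0.11, adjusted p = 0.0506). Of 5 tested in NCI-H3122, 1 rose and 1 fell (median -0.0029, against 0.05). LRP1, the endocytic receptor that clears protease-inhibitor complexes, averaged 6.36 ± 0.580 TPM with TRI-611 and 3.84 ± 0.407 TPM with DMSO (limma, adjusted p = 0.00283, n = 3 each). PLGRKT, a plasminogen receptor, fell by 0.23 (limma, adjusted p = 0.00641). By limma 0 of 6 genes were called in NCI-H2228, and 0 had an unadjusted p under 0.05 (median -0.0088, against 0.01).

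Of 24 further coagulation genes, 12 reached 1 TPM in no library, among them F2, F7, F9, F10 and the 3 fibrinogen chains FGA, FGB and FGG, which the liver supplies to plasma. In SNU2535 1 of 9 tested rose and 1 fell (median 0.08, against -0.02 over all genes): PROS1, protein S, averaged 24.4 ± 1.18 TPM with TRI-611 and 19.7 ± 1.35 TPM with DMSO, and F12, factor XII, 19.0 ± 0.766 TPM with TRI-611 and 23.8 ± 1.58 TPM with DMSO (limma, adjusted p = 0.0107 and 0.00790). VWF, named after its values were seen, averaged 1.22 TPM with TRI-611 and 0.609 TPM with DMSO there, without overlap. Its change of 0.46 was not called (limma, adjusted p = 0.0966) except in 1 fit of all libraries (limma, adjusted p = 0.00622). In NCI-H3122 2 of 9 rose and 2 fell (median 0.02, against 0.05). VWF, the platelet-binding factor, averaged 2.34 ± 0.122 TPM with TRI-611 and 0.904 ± 0.166 TPM with DMSO, and SERPIND1, heparin cofactor II, 1.41 ± 0.0503 TPM with TRI-611 and 3.00 ± 0.220 TPM with DMSO (limma, adjusted p = 0.00305 and 0.00202). GGCX, the carboxylase of the vitamin K-dependent factors, was the other gene that rose (0.13, limma, adjusted p = 0.0482), named after its values were seen, and its call was lost with batch as a block (adjusted p = 0.128) and when any 1 of the 6 libraries was left out (0.10 to 0.14). The fall of F12 there (-0.28, limma, adjusted p = 0.0445) was lost with batch as a block (adjusted p = 0.0753) and when 1 of 5 libraries was left out: DMSO replicate 1 (-0.26), 2 (-0.28) or 3 (-0.31) and TRI-611 replicate 2 (-0.28) or 3 (-0.22). In NCI-H2228 1 of 9 rose (median -0.02, against 0.01): PROC, the protein C that thrombomodulin helps to activate, averaged 9.92 ± 0.300 TPM with TRI-611 and 5.65 ± 0.865 TPM with DMSO, a log2 change of 0.72 (SE 0.104, limma, adjusted p = 0.00341). F12 (-0.29) and PROS1 (0.19) were not called there (limma, adjusted p = 0.0518 and 0.0746). F12 was called with median-ratio scaling (-0.30), quantile normalization (-0.32), a stricter filter and 1 fit of all libraries. PROS1 was called with quantile normalization (0.20) and without TRI-611 replicate 2 (0.25). PROC was not called in SNU2535 and did not pass the filter in NCI-H3122. In NCI-H3122 PROC averaged 0.844 TPM with TRI-611 and 0.155 TPM with DMSO, without overlap.

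Among the other protease-activated receptors, F2RL3, the thrombin receptor of platelets, fell in NCI-H3122 to 1.68 ± 0.156 TPM with TRI-611, against 10.5 ± 0.993 TPM with DMSO, a log2 change of -2.10 (SE 0.0982, limma, adjusted p = 6.73e-06). In NCI-H2228 it averaged 6.71 ± 0.590 TPM with TRI-611 and 9.37 ± 0.939 TPM with DMSO (-0.43, limma, adjusted p = 0.0247), a call lost without TRI-611 replicate 1 (-0.40), TRI-611 replicate 2 (-0.39), DMSO replicate 2 (-0.41) or DMSO replicate 3 (-0.37). It was listed at 0 in all SNU2535 libraries. F2R and F2RL2 were not called by limma where they were tested, but in NCI-H2228 F2R (0.13, adjusted p = 0.154) was called with quantile normalization (0.17) and F2RL2 (-0.28, adjusted p = 0.177) without TRI-611 replicate 3 (-0.41).

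Several matrix metalloproteinases can be activated by plasmin, and TIMPs are their inhibitors. In SNU2535 4 of 7 tested rose and 0 fell by limma (0 fell also at an unadjusted p under 0.05; median log2 change 0.18, against -0.02 over all genes). The collagenase gene MMP13 averaged 45.2 ± 7.92 TPM with TRI-611 and 13.2 ± 0.283 TPM with DMSO, a log2 change of 1.68 (SE 0.109, limma, adjusted p = 4.72e-05). MMP7, matrilysin, averaged 84.7 ± 4.67 TPM with TRI-611 and 51.8 ± 0.223 TPM with DMSO, and TIMP2 146 ± 3.85 TPM with TRI-611 and 123 ± 1.77 TPM with DMSO (limma, adjusted p = 3.76e-05 and 0.00124). In NCI-H3122 0 of 8 rose and 4 fell by limma, and 3 were higher at an unadjusted p under 0.05 (median -0.16, against 0.05). These were MMP13 (0.35), TIMP2 (0.16) and TIMP3 (0.20), named after their values were seen, and all 3 were called in 1 fit of all libraries (limma, adjusted p = 0.0150, 0.00425 and 0.0225). MMP1, interstitial collagenase, fell to 117 ± 18.0 TPM with TRI-611, against 367 ± 19.3 TPM with DMSO, a log2 change of -1.65 (SE 0.114, limma, adjusted p = 0.000121). MMP10, a stromelysin, and MMP14, a membrane-bound protease, fell by 1.12 and 0.34 (limma, adjusted p = 0.000254 and 0.00880). TIMP1, named after its values were seen, made up each of these counts with 0.18 in SNU2535 and -0.17 in NCI-H3122 (limma, adjusted p = 0.0300 and 0.0177). The SNU2535 call of TIMP1 was lost when any 1 library except TRI-611 replicate 3 was left out (0.14 to 0.19), and the NCI-H3122 call without DMSO replicate 1 (-0.16) or DMSO replicate 3 (-0.16). In NCI-H2228 1 of 9 rose and 1 fell (median 0.06, against 0.01): MMP13 averaged 34.5 ± 3.80 TPM with TRI-611 and 20.9 ± 2.03 TPM with DMSO, and TIMP3 191 ± 7.87 TPM with TRI-611 and 212 ± 4.08 TPM with DMSO (limma, adjusted p = 0.00247 and 0.0408). The TIMP3 call was lost when any of the 6 libraries was left out, with log2 changes from -0.17 to -0.12.

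**Figure D4:**
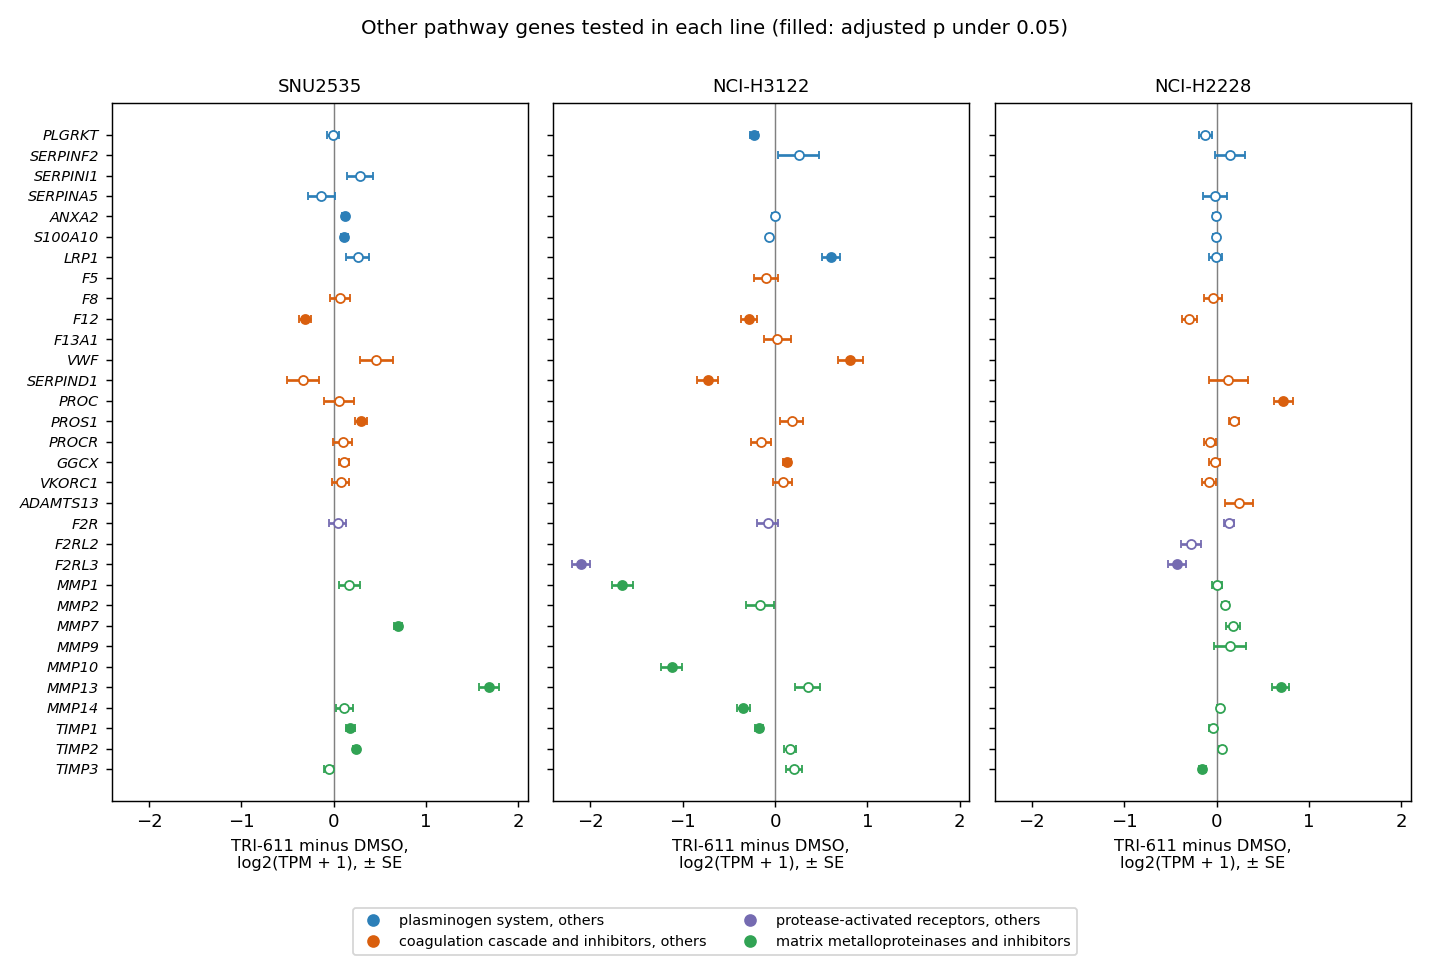
Difference in log2(TPM + 1), TRI-611 minus DMSO, of the tested plasminogen, coagulation, receptor and matrix metalloproteinase genes outside the 9 members, in each line with bars for the SE, filled points marking genes called by limma at an adjusted p under 0.05. MMP13 in SNU2535 lies at 1.68 and F2RL3 in NCI-H3122 at -2.10.

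The same lists also differed in DMSO. F2R, the classic thrombin receptor, averaged 6.72 ± 0.617, 3.01 ± 0.302 and 71.6 ± 3.55 TPM in SNU2535, NCI-H3122 and NCI-H2228 (limma, adjusted p = 4.90e-10 for SNU2535 against NCI-H2228 and 5.01e-11 for NCI-H3122 against NCI-H2228). MMP1 averaged 2.41 ± 0.243, 367 ± 19.3 and 33.2 ± 1.52 TPM and MMP14 5.97 ± 0.414, 93.2 ± 2.33 and 385 ± 12.4 TPM in the same order. Of 7 plasminogen genes tested, 6, 7 and 5 were called for SNU2535 against NCI-H3122, SNU2535 against NCI-H2228 and NCI-H3122 against NCI-H2228, and of 11 coagulation genes 11, 10 and 11. These shares stand beside the 76.1%, 75.0% and 79.3% of all genes called.

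The genes whose log2(TPM + 1) followed each member most closely over the 18 libraries were sought among 19862 genes. These libraries fall into 6 groups and share line and treatment, so Pearson's r is a description with no test. After taking off the mean of each line, PLAU was closest to MAFF (r = 0.996), F3 to SPRY4 (0.997), THBD to CORO2A (0.993), PLAT to SPDEF (0.986), PLAUR to BCAR3 (0.985), TFPI to PCYOX1 (0.955), F2RL1 to MMP10 (0.938), TFPI2 to RPSAP52 (0.890) and SERPINE2 to EDEM1 (0.875). MMP10 averaged at most 0.196 TPM in a group of SNU2535 or NCI-H2228, so its r with F2RL1 rests mostly on the NCI-H3122 libraries. Among the members themselves, PLAU and F3 deviated most alike (0.987), followed by PLAUR and PLAT (0.964), and TFPI ran opposite to F3 (-0.848). By level, line differences included, TMEM171 was closest to PLAU (0.994), TNFRSF10A to F3 (0.991), SMURF2 to THBD (0.985), WDR1 to PLAT (0.992), IL4R to PLAUR (0.949), CTSC to SERPINE2 (0.999), HEXA to TFPI (0.996), UBE2D3 to TFPI2 (0.995) and TRIM21 to F2RL1 (0.993).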

How the data were processed

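Poly-A RNA of 3 lines was sequenced in 18 libraries. The authors deposited 1 table of TPM values for 57500 genes, taken here as it stands. GRCh38, DESeq2, STAR 2.5.2b, fastp 0.23.1, Subread 1.5.2 and featureCounts stand in the submitters' processing notes. How TPM was derived, the annotation, the strand setting and the handling of molecular identifiers is not given in the sources used here. Gene positions are those of GENCODE release 29 on GRCh38.

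From the TPM values, log2(TPM + 1) was computed here. A gene entered a fit where 3 or more of its libraries reached 1 TPM. The test was limma 3.58.1 (R 4.3.3, two-sided, with the trend and robust options of its empirical Bayes step), with Benjamini-Hochberg adjustment over all genes tested, and genes were called at an adjusted p under 0.05. A change on this scale understates that of low genes. Each line was fitted alone, the DMSO libraries in 1 fit of 9, and differences in response as interactions in 12 libraries. The alternatives were pseudocounts of 0.1 and 5, other filters, other scalings, a block, 1 fit of all libraries and each library left out.

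The labels' batch equals the replicate number and so pairs the libraries. Deviations from the group means correlated weakly within a number, at r = -0.0865, -0.0290 and 0.0152 in NCI-H3122, -0.0228, 0.0437 and 0.00966 in SNU2535, and 0.101, 0.00343 and 0.0830 in NCI-H2228.

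Members and lists were chosen with earlier results of these data known, and 1 gene of the plasminogen list and 1 marker are not reported here. Outside the members, the text names up to 3 called genes per list and comparison by size of change, and per member the genes closest to it.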

Additional observations from a re-analysis of the deposited data

Results flagged for a closer look

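The items below are genes whose TRI-611 response differed between 2 lines by limma's interaction contrast (change in the first line minus change in the second, log2 scale). Groups of 3 libraries are too small for a check of single outlying values. For the 9 members, chosen on the contrasts that make up these differences, the values are a description.

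Between SNU2535 and NCI-H3122 the difference was -1.98 for THBD, whose decrease was larger in SNU2535. It was 0.62 for PLAT, 0.55 for PLAUR, 0.48 for F2RL1, 0.39 for PLAU and 0.29 for SERPINE2. Between SNU2535 and NCI-H2228 it was -1.54 for THBD, -1.05 for F3 and -0.86 for PLAU, all with the larger decrease in SNU2535. Between NCI-H3122 and NCI-H2228 it was -1.25 for PLAU, -1.07 for F3, -0.48 for F2RL1, -0.46 for PLAT and -0.40 for PLAUR, and 0.44 for THBD, the 1 called member of this pair that had its larger decrease in NCI-H2228.

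Of the other pathway genes, the collagenase MMP1 differed by 1.82 between SNU2535 and NCI-H3122 and by -1.66 between NCI-H3122 and NCI-H2228 (limma, adjusted p = 1.52e-05 and 1.48e-05). MMP13 differed by 1.33 between SNU2535 and NCI-H3122 and by 0.99 between SNU2535 and NCI-H2228 (limma, adjusted p = 0.000222 and 0.00303). MMP14 differed by 0.46 between SNU2535 and NCI-H3122 and by -0.38 between NCI-H3122 and NCI-H2228 (limma, adjusted p = 0.0189 and 0.0139). S100A10 differed by 0.18 between SNU2535 and NCI-H3122 (limma, adjusted p = 0.0185). Between SNU2535 and NCI-H2228, PROC differed by -0.66, MMP7 by 0.52 and TIMP2 by 0.18 (limma, adjusted p = 0.0252, 0.00603 and 0.0252). Between NCI-H3122 and NCI-H2228, the thrombin receptor gene F2RL3 differed by -1.68, SERPIND1 by -0.86, LRP1 by 0.61 and TIMP3 by 0.36 (limma, adjusted p = 1.24e-05, 0.0156, 0.00596 and 0.0401).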

How the results depend on the processing

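The decreases of PLAU, PLAUR, F3 and THBD in all 3 lines, of PLAT in NCI-H3122 and NCI-H2228 and of F2RL1 in NCI-H3122 kept their direction and call in each of the 14 alternatives run. The decrease of PLAT in SNU2535 kept its direction. The alternatives refit the libraries on whose contrasts the members were chosen. For the members this is therefore a description and no test. With no filter on low values, 5 members were called in SNU2535 in place of 8, and 1052 genes in NCI-H2228 in place of 1882. Leaving out 1 library at a time gave 5 to 7 members in SNU2535 (5 without DMSO replicate 2), 6 to 8 in NCI-H3122 and 5 in NCI-H2228. It gave 3644 to 3905 called genes in SNU2535, 3915 to 4860 in NCI-H3122 and 1152 to 1759 in NCI-H2228, where the count moved most without DMSO replicate 1 (1236) or 2 (1179) and TRI-611 replicate 1 (1152) or 3 (1235). With batch as a block, SNU2535 had 4057 called genes and 6 called members, NCI-H3122 4294 and 7, and NCI-H2228 1724 and 5. The block ended the calls of SERPINE2 and TFPI2 in SNU2535, TFPI2 in NCI-H3122, S100A10 in SNU2535 and F12 and GGCX in NCI-H3122 and no other call of a gene named in the TRI-611 comparisons. The PLAUR level of NCI-H3122 against NCI-H2228 with DMSO reversed to 0.0689 under median-ratio scaling and 0.00937 under quantile normalization. SERPINE2 in NCI-H3122 (-0.12) was called under median-ratio scaling (-0.18), quantile normalization (-0.17) and 1 fit of all libraries. Between lines, scaling by quantiles moved the median of all DMSO differences by up to 0.345. Among the pathway lists, the rises called ranged from 0 to 2 for plasminogen genes in SNU2535 (0 with quantile normalization and without TRI-611 replicate 2), 0 to 2 for coagulation genes in NCI-H3122, 0 to 3 for metalloproteinases and TIMPs in NCI-H3122 (3 in 1 fit of all libraries), 1 to 4 for them in NCI-H2228 (4 with quantile normalization), and 0 to 1 for the other protease-activated receptors in NCI-H2228, where 0 to 2 fell. The cause of these changes was not tested. TPM holds no read totals, and what depth limits for TFPI2 in NCI-H3122, the lowest member, could not be measured.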

Other observations

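C10orf55, which overlaps PLAU on the other strand, averaged 1.29 TPM with TRI-611 and 3.66 TPM with DMSO in SNU2535, 1.13 TPM with TRI-611 and 2.77 TPM with DMSO in NCI-H3122, and 5.85 TPM with TRI-611 and 6.39 TPM with DMSO in NCI-H2228. These levels are far under those of PLAU in the same libraries, and the share of reads common to both genes is not known. RN7SL368P lies within PLAUR on the same strand and reached at most 2.16 TPM in any library.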
